A study of Mus musculus with 18 samples.

Results

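The genes described here are 9 receptors through which hormones and metabolites act on fat breakdown in adipocytes: Adrb1, Adrb3, Adra2a, Adora1, Ptger3, Hcar1, Hcar2, Ffar2 and Ffar4. They were taken as a list of named genes, 9 of the 33440 genes counted in 18 mouse RNA-seq libraries, and all 9 were found by symbol. The first experiment used adipocytes differentiated in culture from the inguinal stromal vascular fraction (SVF) of C57BL/6 mice carrying the IRF3-2D allele, a phospho-mimetic and constitutively active form of the transcription factor IRF3 that stays silent until Cre is present. WT SVF-derived adipocytes (3 libraries) received AAV-GFP and FI3OE adipocytes (3 libraries) received AAV-GFP-Cre, so that the control cells carry the allele too and the groups also differ in Cre itself. Fat pads came from donors aged 4 to 6 weeks, described once as males and once as both sexes. Virus was added on day 6 of differentiation and cells were collected on day 8, in medium with insulin and rosiglitazone. The second experiment used epididymal white adipose tissue (eWAT) of C57BL/6 mice kept on a high-fat diet at thermoneutrality for 8 weeks, with 6 WT libraries and 6 libraries from mice lacking IRF3 in adipocytes (FI3KO). Here RNA bound to ribosomes was isolated by TRAP, a pull-down of a GFP-tagged ribosomal protein made in cells that express Adipoq-Cre, so that WT and FI3KO animals both carry the tag and the Cre. High-fat feeding at thermoneutrality is described in general for males aged 8 weeks at its start and fed for longer, and which of this holds for the TRAP mice, labelled with 8 weeks of diet, is not given in the sources used here. Samples are labelled as biological replicates without saying which culture or animal each came from, so p-values measure the spread between these libraries, which may be technical.

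In fat cells, catecholamines acting on beta-adrenergic receptors raise cyclic AMP through the stimulatory G protein Gs, and cyclic AMP switches on the lipases that break down stored triglyceride. Receptors coupled to the inhibitory G protein Gi, such as the adenosine A1 receptor, the prostaglandin E receptor EP3, the alpha-2A adrenergic receptor and the receptors for lactate, ketone bodies and short-chain fatty acids, lower cyclic AMP and hold lipolysis back. ADRB3 is the beta-adrenergic receptor best known from rodent adipocytes.

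Libraries held between 21541334 and 40490283 reads, with a median of 30135496. Irf3 itself, the targeted gene, had 57.4 ± 1.02 CPM (read counts scaled to the same library total) in WT SVF-derived adipocytes and rose to 94.4 ± 5.18 CPM with FI3OE (SD, n = 3 each). In TRAP RNA it ranged from 17.2 to 23.2 CPM in WT and fell to between 12.4 and 18.8 CPM in FI3KO (log2 fold change -0.35, adjusted p = 0.0198 in edgeR). Counts were summed over all exons, and the exons deleted in FI3KO were not looked at separately. The 10 adipocyte marker genes summed to between 33537 and 44981 CPM in the TRAP libraries and to between 6815 and 8068 CPM in the SVF-derived adipocytes. The 16 macrophage markers summed to between 2273 and 2496 CPM in the SVF-derived adipocytes, so macrophage RNA was present in the cultures. In TRAP RNA the same markers summed to between 41.9 and 109 CPM in WT and between 21.3 and 48.9 CPM in FI3KO, and of the 14 tested 11 fell in FI3KO and 1 rose (Cd14, from 0.703 to 2.18 CPM), where 18.3% of all genes fell and 19.1% rose. Within the TRAP groups, replicates 1 and 2 were closer to each other than to any of replicates 3 to 6, although the labels name no batch. WT replicates 3 to 6 were themselves uneven, and replicates 3 and 5 differed (chi-square per degree of freedom 126) more than most pairs across the sets did. The WT TRAP libraries of replicates 1 and 2 were the closest pair of their group (2.54, against 8.41 to 130 for the other pairs), yet they differed by more than sampling noise and were kept as separate samples. The receptor differences between the TRAP genotypes are therefore also given for each of these replicate sets below. Other TRAP results are over all libraries of a group unless a set is named.

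The receptors lie on 6 chromosomes in GRCm38. Hcar1 (chr5:123876736-123880020) and Hcar2 (chr5:123863570-123865499) are neighbours on the minus strand, and Adrb1 (chr19:56722199-56733113), Adra2a (chr19:54044151-54048982) and Ffar4 (chr19:38097071-38114263) share a chromosome and the plus strand. Adora1 (chr1:134199223-134235431, minus strand) overlaps Mybph on the plus strand, and Adrb3 (chr8:27225776-27250616, minus strand) overlaps the antisense gene Gm45470. The library kit kept no strand, so reads of these overlapping genes cannot be told apart by strand. Ptger3 is at chr3:157566892-157645888 on the plus strand and Ffar2 at chr7:30818348-30823775 on the minus strand.

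The RefSeq promoter table (GRCm38.p6) holds windows for 7 of the 9 receptors, 11 windows in all. Adrb1, Hcar1 and Ffar4 are shown because their expression rose in FI3KO adipocytes (below) and the table has a window for them. Printed are bases 250 to 51 before the annotated start, on the strand of the gene, and capitals mark TGACG, one arm of the cyclic AMP response element, the DNA site read by the transcription factor CREB. The Adrb1 stretch is chr19:56721867-56722066, the Hcar1 stretch chr5:123880054-123880253 and the Ffar4 stretch chr19:38096829-38097028.
Adrb1: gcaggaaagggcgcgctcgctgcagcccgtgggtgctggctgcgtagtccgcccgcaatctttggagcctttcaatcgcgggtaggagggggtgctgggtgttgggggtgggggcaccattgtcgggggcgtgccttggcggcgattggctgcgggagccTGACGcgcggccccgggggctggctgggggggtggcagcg
Hcar1: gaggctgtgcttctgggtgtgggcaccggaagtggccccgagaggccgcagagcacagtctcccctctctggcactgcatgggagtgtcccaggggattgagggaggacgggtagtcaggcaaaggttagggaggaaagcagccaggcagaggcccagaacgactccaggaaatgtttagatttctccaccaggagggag
Ffar4: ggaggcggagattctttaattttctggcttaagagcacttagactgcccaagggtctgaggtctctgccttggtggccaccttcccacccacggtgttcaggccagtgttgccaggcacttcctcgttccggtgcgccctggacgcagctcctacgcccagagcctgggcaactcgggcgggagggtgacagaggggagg
Searched over the 250 bases before the start on both strands, TGACG was found in the windows of Adrb1 and Adra2a, 2 of the 11 receptor windows, and in 17.8% of the 32851 windows of all genes. The whole palindrome TGACGTCA, which contains TGACG, occurred in 1.55% of all windows and in 0 of the 11. The core of the interferon-stimulated response element that IRF proteins bind, searched as GAAA, any 2 bases and GAAA again, occurred in 2.98% of all windows and in 0 of the 11. These are matches of letters in short windows, and binding was not measured.

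In WT SVF-derived adipocytes the beta-3 adrenergic receptor was the most abundant of the 9 receptors per length. Adrb3 was at 414 ± 11.6 TPM, a level scaled for transcript length and library total (SD, n = 3), followed by Adora1 at 74.5 ± 3.22 TPM and Ffar2, the receptor for short-chain fatty acids, at 36.3 ± 4.80 TPM. Ffar4, a receptor for long-chain fatty acids, was at 22.1 ± 1.69 TPM. Hcar2, the receptor for ketone bodies and niacin, and Hcar1, the lactate receptor, followed at 11.2 ± 0.726 and 9.79 ± 0.752 TPM, and these 2 were the only neighbours in the order whose ranges over libraries overlapped. Adrb1 was at 3.37 ± 0.477 TPM, Ptger3 at 2.45 ± 0.311 TPM and Adra2a at 0.498 ± 0.116 TPM.

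WT TRAP RNA from eWAT had a different order, in which the EP3 receptor stood next to Ffar2 below Adrb3. Adrb3 was again highest, at 550 ± 265 TPM (SD, n = 6), and ranged from 326 to 904 TPM. Ptger3 was at 243 ± 53.0 TPM and Ffar2 at 191 ± 18.2 TPM, with overlapping ranges. With protein-coding transcripts alone, Ptger3 was at 150.5 ± 41.1 TPM and came after Ffar2, again with overlapping ranges. Ffar4 at 80.6 ± 18.7 TPM and Adora1 at 77.7 ± 4.50 TPM overlapped too. Hcar1 was at 42.4 ± 21.4 TPM, Hcar2 at 18.4 ± 4.99 TPM and Adrb1 at 5.73 ± 3.51 TPM, and these 3 kept that order in all 6 libraries. Adra2a was at the limit of detection, with 0 to 2 reads in each WT TRAP library and 9 reads over the 6.

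**Figure D1:**
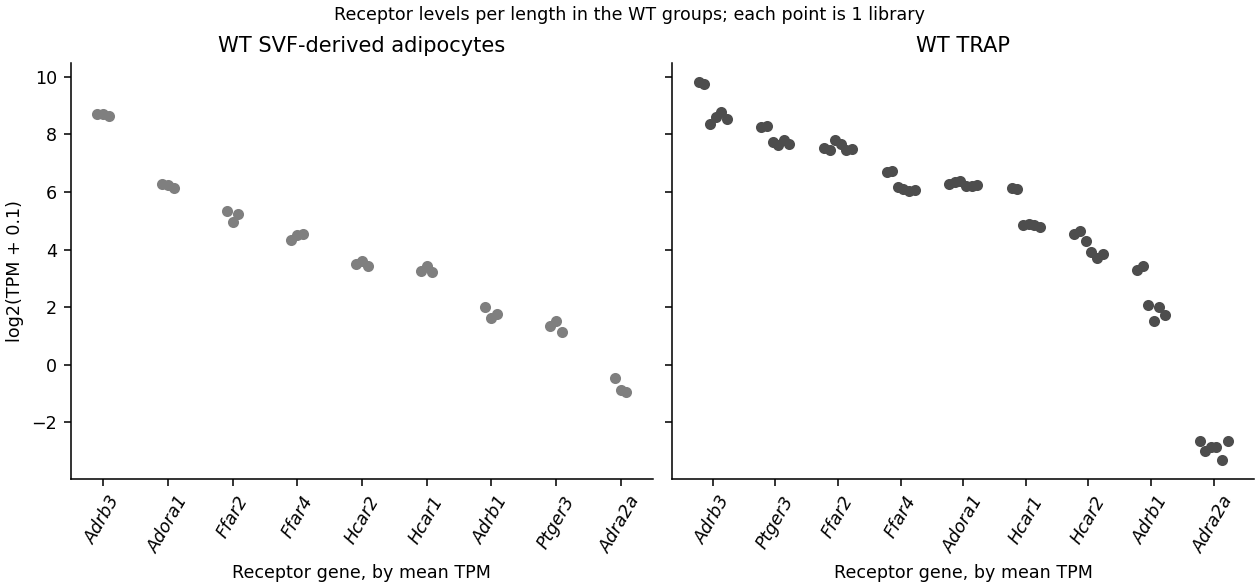
Level of each receptor gene in the WT groups, as log2(TPM + 0.1) on the vertical axis, with the receptors ordered by mean TPM on the horizontal axis and 1 point per library. Adrb3 leads both panels, and Ptger3 moves from the eighth place in SVF-derived adipocytes (2.45 TPM) to the second in TRAP RNA (243 TPM), where its protein-coding transcripts alone are at 150.5 TPM, below Ffar2 (191 TPM).

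Setting the WT groups side by side, 8 of the 9 receptors passed the test (adjusted p at most 0.05 in edgeR), 7 higher and 1 lower in TRAP RNA. The lower one was Adra2a, which reached the test through its reads in the SVF-derived adipocytes alone. Of all genes tested 80.2% passed in this comparison, 38.1% as higher and 42.1% as lower. The median log2 fold change was 1.24 over the 9 receptors and -0.07 over all genes. Depot, culture, diet, the kind of RNA, the mix of cells and the IRF3-2D allele, which only the SVF-derived controls carry, all change between these groups and cannot be told apart. Fibroblast and preadipocyte markers summed to between 1492 and 1542 CPM in the SVF-derived adipocytes and between 68.6 and 78.6 CPM in TRAP RNA, and the macrophage sums differed as given above. The values of this comparison also rest on the scaling: with library totals in place of edgeR's TMM factors, a setting added after seeing the data, the median over all genes was -0.53 and that over the receptors 0.77, and 5 receptors passed as higher and 1 as lower. Calls over all genes were split into 47.5% higher and 52.5% lower with TMM and into 29% higher and 71% lower with library totals. The largest difference was that of Ptger3, with 2.95 to 3.48 CPM in the SVF-derived adipocytes and 245 to 370 CPM in TRAP RNA (log2 fold change 6.99, SE 0.24, adjusted p = 1.28e-09). Ffar2, Hcar1, Ffar4 and Hcar2 were higher in TRAP RNA as well, with log2 fold changes of 2.98, 2.49, 2.22 and 1.07, and none of them overlapped between the groups. Such a lack of overlap was seen for 78.3% of all genes. Adora1 was higher by 0.61 on the log2 scale (SE 0.060, adjusted p = 4.30e-06), but by 0.15 with library totals, where it did not pass (adjusted p = 0.0534). Adra2a had 12 to 20 reads per library in the SVF-derived adipocytes against 2 or fewer in TRAP RNA. Since only the former took it past the filter on low counts, its call as lower adds nothing to these reads. No fold is given for it, since the fitted value rests on the prior count.

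The calls of the beta-adrenergic receptors in that comparison changed with single libraries. Adrb1 had a log2 fold change of 1.24 (SE 0.48, adjusted p = 0.0339) with overlapping groups, and leaving out 1 library ended the call for WT TRAP replicate 1 (adjusted p = 0.0556), WT TRAP replicate 2 (0.0536) and each of the SVF-derived libraries 1 to 3 (0.0716, 0.0914 and 0.0857). With library totals it was 0.77 (adjusted p = 0.144). Adrb3 had a log2 fold change of 0.81 (SE 0.35, adjusted p = 0.0522) and did not pass, but passed without WT TRAP replicate 3 (adjusted p = 0.0220), replicate 4 (0.0433) or replicate 6 (0.0374). It passed in 9 of 23 alternative settings. Its log2 fold change was 1.54 with TRAP replicates 1 and 2 only (adjusted p = 2.61e-12) and 0.28 with replicates 3 to 6 only (adjusted p = 0.0396), and with library totals the latter turned to -0.16 (adjusted p = 0.183).

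The first comparison asked what active IRF3 does to these genes in cultured adipocytes. Adrb3, Ptger3, Ffar2 and Adora1 fell in FI3OE and Hcar2 rose, while Adrb1, Adra2a, Hcar1 and Ffar4 did not pass the test. All 9 receptors were tested and 5 passed, where 37% of all genes did (20.2% higher and 16.8% lower). Ptger3 alone also changed by 1 or more on the log2 scale, and 3.62% of all genes met both cutoffs. The median log2 fold change was -0.14 over the 9 receptors and -0.005 over all genes. In 7 of the 9 the libraries of the groups did not overlap, against 49.8% of all genes. With 3 libraries against 3 the exact permutation test (two-sided) cannot give a p below 0.1, the value it gave for each of those 7. In RNA of whole cultures, fewer cells of a type and less RNA per cell cannot be told apart.

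Marker genes of the cell types in the cultures differed between the groups as well, where 20.2% of all genes rose and 16.8% fell. The 10 adipocyte markers summed to between 7853 and 8068 CPM in WT and between 6815 and 7202 CPM in FI3OE (2 rose and 4 fell), and without Car3 to between 5419 and 5506 and between 5570 and 5745 CPM. The 8 fibroblast and preadipocyte markers summed to between 1492 and 1542 CPM in WT and between 2447 and 2520 CPM in FI3OE (2 rose and 1 fell). That difference was one of Ly6a, which rose from 390.0 to 1374 CPM, and the other 7 summed to between 1100.2 and 1165 CPM in WT and between 1066 and 1151 CPM in FI3OE. Of 5 thermogenic adipocyte markers tested 3 fell (Cox8b, Ppargc1a and Cidea) and 0 rose, with sums of 27.9 to 29.3 CPM in WT and 21.6 to 25.0 CPM in FI3OE. Cidea had 3 reads or fewer in every FI3OE library. Only its WT reads (0.806 CPM on average) took it past the filter on low counts, so its call adds nothing to these reads. Of the 16 macrophage markers 6 rose and 3 fell, with sums of 2346 to 2496 CPM in WT and 2273 to 2280 CPM in FI3OE, and Mrc1 fell from 436 to 235 CPM. The part of these genes' cells in the receptor differences was not tested.

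Adrb3, the receptor that couples catecholamines to Gs, was at 218, 220 and 214 CPM in WT replicates 1 to 3 and at 128, 129 and 126 CPM in FI3OE. Every FI3OE library was far below every WT library, and the replicates of a group lay within a few CPM of one another. The log2 fold change was -0.75 (SE 0.035, adjusted p = 2.78e-08), or 1.68-fold lower. It passed in 15 of 16 alternative settings, the exception being a fit of all 18 libraries (adjusted p = 0.183). Adrb1, the beta-1 adrenergic receptor, was at 3.26, 2.74 and 2.91 CPM in WT and 2.37, 2.29 and 2.27 CPM in FI3OE. Its FI3OE libraries were all the lower ones, but the test did not pass (log2 fold change -0.35, SE 0.15, adjusted p = 0.09997).

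Among the Gi-coupled receptors, Ptger3 was at 3.26, 3.48 and 2.95 CPM in WT and 1.69, 1.26 and 1.71 CPM in FI3OE. These values stand for only 34 to 78 reads per library. The groups did not overlap, and expression was 2.05-fold lower in FI3OE (log2 fold change -1.03, SE 0.18, adjusted p = 0.000914). Adora1, the adenosine A1 receptor, was at 137, 135 and 125 CPM in WT and 122, 117 and 121 CPM in FI3OE, with a gap between the groups smaller than the spread of the WT libraries. Its log2 fold change of -0.13 (SE 0.041, adjusted p = 0.0322) did not pass without FI3OE replicate 1, 2 or 3 (adjusted p = 0.0651, 0.0703 and 0.0606) or without WT replicate 1 or 2 (0.0974 and 0.109), nor with no filter on low counts (0.0677) or in the fit of all 18 libraries (0.275). It also vanished once the length of the transcripts was allowed for (log2 fold change -0.002, adjusted p = 0.986). The shortest annotated Adora1 transcript, Adora1-204 of 763 bases, took 17.9% ± 1.93 of the gene's TPM in WT and 25.6% ± 3.14 in FI3OE (SD, n = 3 each). Adra2a had 12 to 20 reads per library in WT and 16 to 44 in FI3OE, with a log2 fold change of 0.57 (SE 0.32, adjusted p = 0.194) and overlapping groups.

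The metabolite receptors moved in different directions. Hcar2 was at 10.7, 11.3 and 10.2 CPM in WT and rose to 15.0, 15.9 and 16.4 CPM in FI3OE. No library overlapped, and the log2 fold change was 0.58 (SE 0.077, adjusted p = 0.000115), which did not pass in the fit of all 18 libraries (adjusted p = 0.282). Its neighbour Hcar1 was at 15.1, 16.7 and 14.9 CPM in WT and 16.8, 18.9 and 17.2 CPM in FI3OE. The difference was 0.20 on the log2 scale (SE 0.075, adjusted p = 0.0607) and passed without WT replicate 2 (0.25, adjusted p = 0.0386). Ffar2 fell from 15.4, 14.8 and 14.8 CPM in WT to 8.20, 10.4 and 9.64 CPM in FI3OE, 1.57-fold (log2 fold change -0.65, SE 0.095, adjusted p = 0.000247), and this passed in all 16 alternative settings. Ffar4 was at 9.16, 10.0 and 10.5 CPM in WT and at 4.90, 14.7 and 7.04 CPM in FI3OE, so that replicate 2 lay above every WT library and the other two below. Its log2 fold change of -0.14 (SE 0.30, adjusted p = 0.758) became -0.70 without FI3OE replicate 2 (adjusted p = 0.00585), 0.14 without replicate 1 and 0.02 without replicate 3.

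**Figure D2:**
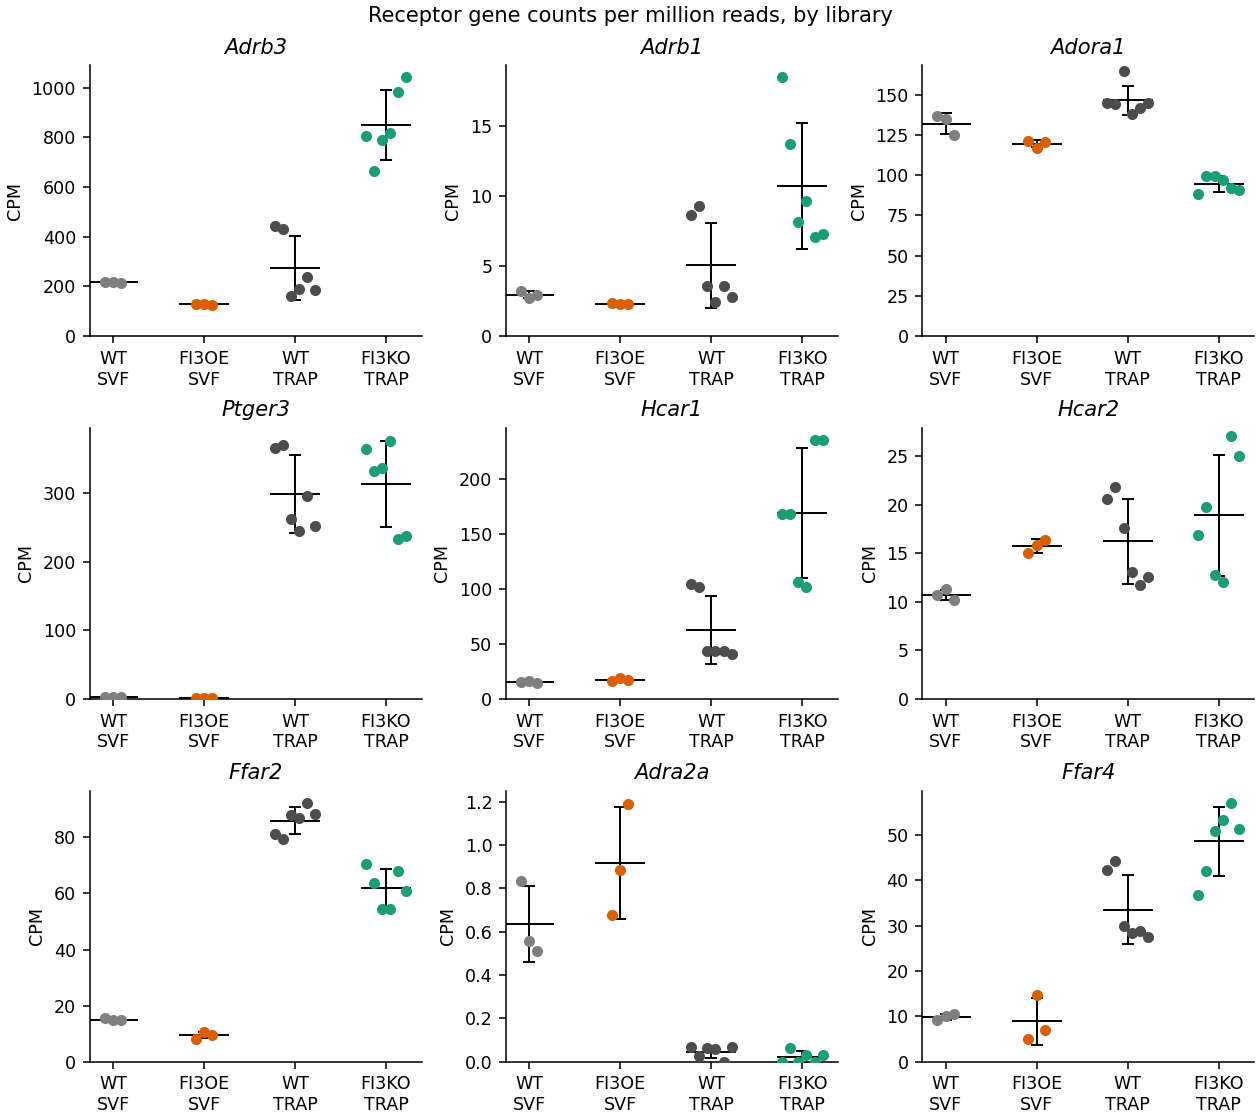
CPM of each receptor gene on the vertical axis, from 0, in the 4 groups on the horizontal axis, with 1 point per library and black lines for the mean and SD (n = 3 for SVF, n = 6 for TRAP). Adrb3 separates the genotypes in both experiments, with 126 to 129 CPM in FI3OE against 214 to 220 in WT, and 663 to 1044 CPM in FI3KO against 161 to 444 in WT.

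The second comparison asked what loss of IRF3 in adipocytes does to these genes in eWAT of mice on the high-fat diet. The beta-adrenergic receptors Adrb3 and Adrb1, the lactate receptor Hcar1 and the fatty acid receptor Ffar4 rose in FI3KO, and Adora1 and Ffar2 fell. Ptger3 and Hcar2 did not pass, and Adra2a had too few reads to be tested (0 to 2 per library in both groups). Of the 8 receptors tested 6 passed, where 37.4% of all genes did (19.1% higher and 18.3% lower), and 3 (Adrb3, Hcar1 and Adrb1) met both cutoffs, where 6.61% of all genes did. The median log2 fold change was 0.42 over the 8 receptors and 0.02 over all genes. In 3 receptors the groups did not overlap, against 15.2% of all genes.

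Adrb3 ranged from 161 to 444 CPM in WT, with a median of 215, and from 663 to 1044 CPM in FI3KO, with a median of 811. The lowest FI3KO library lay above the highest WT library. Expression was 3.16-fold higher in FI3KO (log2 fold change 1.66, SE 0.26, adjusted p = 0.000595), and the exact permutation test (two-sided) gave p = 0.00216, the smallest that 6 libraries against 6 allow. The rise passed in all 27 alternative settings, with an adjusted p of at most 0.0480. Adrb1 ranged from 2.42 to 9.28 CPM in WT (median 3.58) and from 7.06 to 18.5 CPM in FI3KO (median 8.90), with overlapping groups. Its log2 fold change was 1.13 (SE 0.38, adjusted p = 0.0331). The call was lost without FI3KO replicate 1 or 2 (adjusted p = 0.0786 and 0.0598) and without WT replicate 3, 4, 5 or 6 (0.0732, 0.0695, 0.0654 and 0.0742).

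The Gi-coupled receptors went both ways. Hcar1 ranged from 40.8 to 104 CPM in WT (median 43.7) and from 102 to 235 CPM in FI3KO (median 168), and 5 of the 6 FI3KO libraries lay above all WT libraries. It rose 2.76-fold (log2 fold change 1.47, SE 0.32, adjusted p = 0.00377). Adora1 fell, from between 138 and 165 CPM in WT (median 145) to between 88.6 and 99.7 CPM in FI3KO (median 94.6), with a wide gap between the groups. The log2 fold change of -0.58 (SE 0.048, adjusted p = 1.75e-05) passed in all 27 alternative settings, and the exact permutation p was again 0.00216. Ffar2 fell from between 79.4 and 92.4 CPM in WT (median 87.4) to between 54.5 and 70.6 CPM in FI3KO (median 62.3), without overlap (log2 fold change -0.42, SE 0.079, adjusted p = 0.00160, exact permutation p = 0.00216). Hcar2 ranged from 11.7 to 21.9 CPM in WT and from 12.0 to 27.0 CPM in FI3KO, a log2 fold change of 0.27 (SE 0.23, adjusted p = 0.384). Ptger3 ranged from 245 to 370 CPM in WT and from 233 to 377 CPM in FI3KO (log2 fold change 0.12, SE 0.16, adjusted p = 0.588).

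Ffar4, whose coupling differs between cells and which is a target of omega-3 fatty acids, ranged from 27.6 to 44.1 CPM in WT (median 29.3) and from 36.8 to 57.0 CPM in FI3KO (median 51.1). The upper WT libraries overlapped with the lower FI3KO libraries, and 4 of the 6 FI3KO libraries lay above all WT libraries. The log2 fold change was 0.58 (SE 0.15, adjusted p = 0.00825). With neighbouring replicates summed to 3 samples a group, a setting chosen after seeing the data, Adrb3 (adjusted p = 0.0480) and Adora1 (0.0272) still passed, and Ffar4 (0.120), Hcar1 (0.0877), Ffar2 (0.0616) and Adrb1 (0.195) did not.

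**Figure D3:**
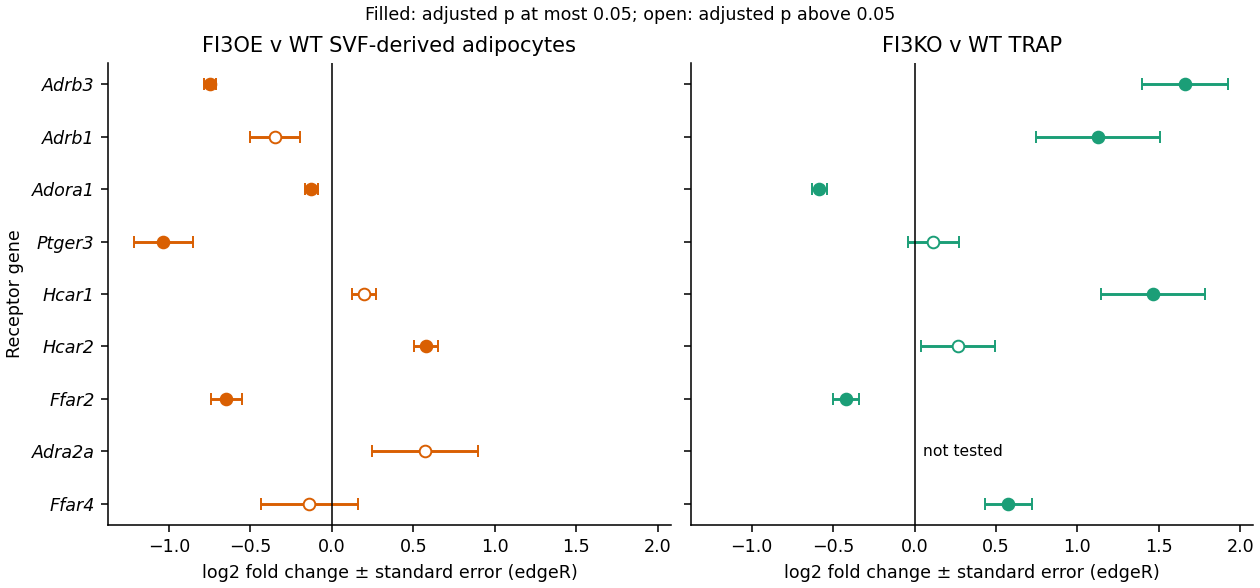
Log2 fold change of each receptor gene on the horizontal axis, with its standard error from edgeR, for FI3OE against WT SVF-derived adipocytes (left) and FI3KO against WT TRAP RNA (right). Filled points passed at an adjusted p of at most 0.05, and Adrb3 is filled on opposite sides of 0, at -0.75 and 1.66.

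The size of these differences depended on the replicate set. In WT replicates 1 and 2 Adrb3 was at 444 and 431 CPM and in WT replicates 3 to 6 at 161 to 238 CPM, whereas the FI3KO libraries were at 663 to 805 CPM in replicates 1 and 2 and 788 to 1044 CPM in replicates 3 to 6. The log2 fold change of Adrb3 was 0.81 (SE 0.12, adjusted p = 0.0334) within replicates 1 and 2 and 2.27 (SE 0.15, adjusted p = 1.57e-06) within replicates 3 to 6. The difference between the sets was -1.46 (SE 0.23, adjusted p = 0.000784 for the interaction term in edgeR). Of all genes 26.5% had an interaction past the test, and 3 of the 8 receptors did: Adrb3, Hcar1 and Ffar4. Within replicates 1 and 2, 3.56% of all genes passed for the genotype and within replicates 3 to 6, 50.6%.

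Hcar1 rose by 0.77 on the log2 scale in replicates 1 and 2 (SE 0.066, adjusted p = 0.0107) and by 2.04 in replicates 3 to 6 (SE 0.29, adjusted p = 0.000228). Its WT libraries were at 104 and 102 CPM in replicates 1 and 2 and at 40.8 to 43.8 CPM in replicates 3 to 6, while FI3KO was at 168 CPM in each of replicates 1 and 2, at 106 and 102 CPM in replicates 3 and 4, and at 235 CPM in each of replicates 5 and 6. The Hcar1 values of FI3KO thus came in neighbouring pairs, and over all genes these libraries did so too. The chi-square per degree of freedom was 17.6 for FI3KO replicates 3 and 4 and 16.9 for replicates 5 and 6. For the other pairs among FI3KO replicates 3 to 6 it ran from 56.5 to 86.3. The p-values within replicates 3 to 6 treat these libraries as separate samples. Ffar4 was at 42.2 and 44.1 CPM in WT and at 36.8 and 42.0 CPM in FI3KO in replicates 1 and 2, with a log2 fold change of -0.07 (adjusted p = 0.622), and it rose by 0.94 on the log2 scale within replicates 3 to 6 (SE 0.059, adjusted p = 1.47e-06). Adora1 differed by -0.56 within replicates 1 and 2 (adjusted p = 0.0238) and -0.59 within replicates 3 to 6 (adjusted p = 2.33e-05), with an interaction of 0.02 (SE 0.097, adjusted p = 0.876). Adrb1 differed by 0.91 (adjusted p = 0.0581) and 1.42 (adjusted p = 4.07e-05), and Ffar2 by -0.19 (adjusted p = 0.225) and -0.53 (adjusted p = 0.000461). Ptger3 had -0.017 (adjusted p = 0.909) and 0.21 (adjusted p = 0.252), and Hcar2 -0.15 (adjusted p = 0.363) and 0.54 (adjusted p = 0.119).

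**Figure D4:**
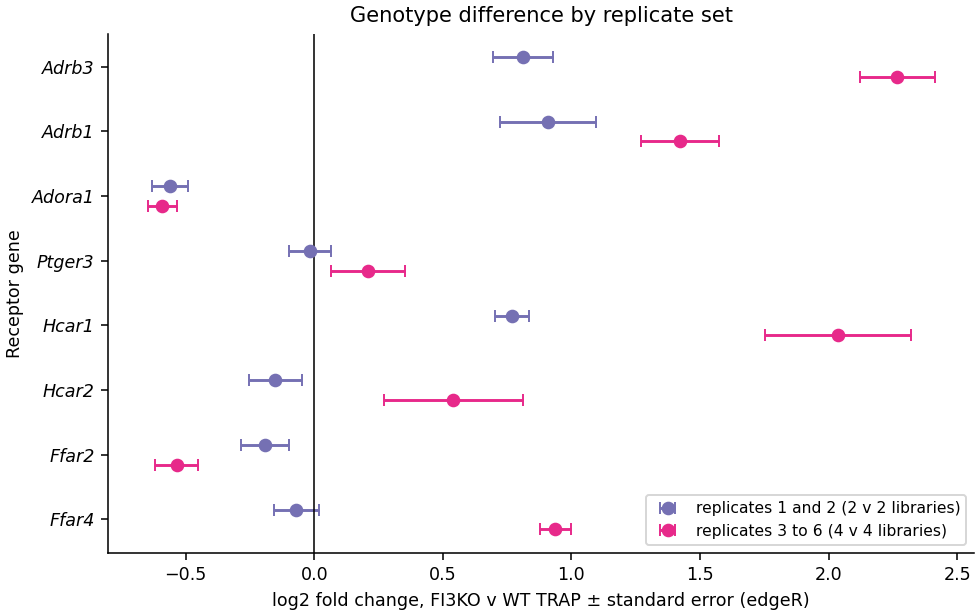
Log2 fold change of 8 receptor genes for FI3KO against WT TRAP RNA on the horizontal axis, with the standard error from edgeR, fitted within replicates 1 and 2 and within replicates 3 to 6. Adora1 gave like values in each set (-0.56 and -0.59), while Adrb3 moved from 0.81 to 2.27, Hcar1 from 0.77 to 2.04 and Ffar4 from -0.07 to 0.94.

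RNA of other cells also differed between the TRAP groups. The 16 macrophage markers summed to between 78.1 and 109 CPM in WT replicates 3 to 6 and between 21.3 and 22.9 CPM in FI3KO replicates 3 to 6. In replicates 1 and 2 they summed to between 41.9 and 42.9 CPM in WT and between 41.9 and 48.9 CPM in FI3KO. Within replicates 1 and 2, where 3.56% of all genes passed, Adrb3, Hcar1 and Adora1 passed the test, and Adrb1, Ffar2 and Ffar4 did not. That test rests on 2 libraries a group, and the WT libraries were the closest pair of theirs (chi-square per degree of freedom 2.54). Endothelial markers there summed to between 26.4 and 28.7 CPM in WT and between 44.1 and 75.4 CPM in FI3KO. In replicates 3 to 6 they summed to between 18.1 and 33.2 CPM in WT and between 18.8 and 27.2 CPM in FI3KO. Over all libraries, 0 of the 5 endothelial markers tested rose and 0 fell. Fcgr1 was the only one of the 16 macrophage markers with 3 reads or fewer in every library of a TRAP group (FI3KO). Neutrophil markers summed to between 3.08 and 7.93 CPM in WT and between 0.256 and 0.773 CPM in FI3KO with S100a8 the most abundant, while Ly6g and 5 other neutrophil markers had 3 reads or fewer in every TRAP library. Fibroblast and preadipocyte markers summed to between 68.6 and 78.6 CPM in WT and between 80.7 and 107 CPM in FI3KO, and of the 8 tested 1 rose (Dcn, from 27.3 to 68.5 CPM) and 2 fell. Of the 10 adipocyte markers 4 rose, among them Cfd (log2 fold change 1.83), and Lep fell from 9581 to 2975 CPM. Their sum was between 43712 and 43787 CPM in WT and between 34736 and 37516 CPM in FI3KO in replicates 1 and 2, and between 33537 and 41530 and between 41100.0 and 44981 CPM in replicates 3 to 6. The part of these cells in the receptor differences was not tested. Hcar2 is known from macrophages and neutrophils as well as fat cells, and Ffar2 from neutrophils.

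The experiments have separate control libraries, and their values can be set side by side. Adrb3 had a log2 fold change of -0.75 in FI3OE and 1.66 in FI3KO, each against its own WT group, and Ffar2 had -0.65 and -0.42. Adora1 was lower in FI3OE (-0.13) and in FI3KO (-0.58). Ptger3 moved in FI3OE (-1.03) from a level of 3.23 CPM, and stood at 0.12 in FI3KO, where WT had 299 CPM. Hcar2 had 0.58 and 0.27, and Hcar1 0.20 and 1.47. Adrb3 passed in opposite directions in the 2 experiments, and Adora1 and Ffar2 passed in the same direction. Of all genes tested, 37% passed in FI3OE and 37.4% in FI3KO. The share that passed in both was not counted, so these receptor calls have no background of all genes beside them. The Adora1 call in FI3OE was lost in 8 of 16 alternative settings, and the Ffar2 call in FI3KO with replicates 1 and 2 only and with neighbouring replicates summed. The difference between the experiments was not tested.

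Summed by textbook coupling, the Gs receptors (Adrb1 and Adrb3) reached 404 to 425 TPM in WT SVF-derived adipocytes and 221 to 231 TPM in FI3OE, and the 6 Gi receptors 131 to 140 and 114 to 127 TPM. The ratio of the sums was 3.10 ± 0.101 in WT and 1.89 ± 0.148 in FI3OE (SD, n = 3 each). In TRAP RNA the Gs sum ran from 331 to 914 TPM in WT and from 1241 to 2095 TPM in FI3KO, while the Gi sum ran from 503 to 667 and from 538 to 583 TPM. The ratio was 0.940 ± 0.330 in WT (0.582 to 1.38) and 2.95 ± 0.616 in FI3KO (2.13 to 3.77; SD, n = 6 each), so the groups did not overlap. Within replicates 1 and 2 it was 1.38 and 1.32 in WT and 2.42 and 2.13 in FI3KO. Within replicates 3 to 6 it ran from 0.582 to 0.861 in WT and from 2.97 to 3.77 in FI3KO. Over all libraries, the ratio with the protein-coding transcripts of Ptger3 alone was 0.685 to 1.65 in WT and 2.56 to 4.34 in FI3KO. Without Ptger3 it was 0.934 to 2.56 and 3.96 to 6.91. These are amounts of RNA, Adrb3 makes up nearly all of the Gs sum, and no test was run on the ratio.

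Salmon's split of reads over transcripts shows which annotated forms the counts came from. Adrb3 reads went mainly to 3 protein-coding transcripts, and Adrb3-203 held 47.5% ± 2.19 of the gene's TPM in WT TRAP and 50.3% ± 3.32 in FI3KO TRAP (SD, n = 6 each), against 41.6% ± 2.15 in WT SVF-derived adipocytes (SD, n = 3). For Ptger3, the annotated retained-intron transcript Ptger3-203, which is not protein-coding, took 53.8% to 62.2% of the reads in WT TRAP and 54.5% to 57.5% in FI3KO TRAP. The coding transcript Ptger3-202 made up 58.9% ± 3.12 of the gene's TPM in WT TRAP and 62.2% ± 1.68 in FI3KO TRAP (SD, n = 6 each). Hcar1, Hcar2 and Ffar4 have a single annotated transcript. Ffar2 reads were spread over 6 transcripts, with Ffar2-203 at 48.6% ± 5.19 of its TPM in WT TRAP and 48.4% ± 6.50 in FI3KO TRAP.

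Other genes of the pathway were followed in lists. Their counts stand beside 20.2% of all genes that rose and 16.8% that fell in FI3OE, and 19.1% and 18.3% in FI3KO. Of 28 other adipocyte receptors that act on cyclic AMP or calcium, 18 were tested in the SVF-derived adipocytes, where 8 rose and 4 fell in FI3OE (median log2 fold change 0.30, against -0.005 for all genes). Cnr1, the cannabinoid receptor CB1, rose from 3.03 ± 0.236 to 15.7 ± 0.313 CPM (log2 fold change 2.39), Adora2b, an adenosine receptor coupled to Gs, rose by 0.74 on the log2 scale and Mc2r, the ACTH receptor, by 0.67. Adra1a (log2 fold change -1.72) and Mc5r (-0.44) were among those that fell (SD, n = 3 each). In TRAP RNA 13 were tested, 0 rose and 3 fell in FI3KO: Mc2r (log2 fold change -0.66), Adra1a (-0.55) and Adra1d (-0.36). The median there was -0.36, against 0.02 for all genes.

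Downstream of the receptors, 34 genes for G proteins, adenylyl cyclases, protein kinase A and phosphodiesterases were listed. In FI3OE 8 of the 32 tested rose and 5 fell, a share near the 37% of all genes that passed, among them Adcy5 (log2 fold change -0.48) and Pde3b, the phosphodiesterase that insulin activates (-0.23), which fell, and Pde7a (0.95), which rose. In FI3KO 7 of the 29 tested rose and 8 fell, among them Pde3b (0.71), the catalytic subunit gene Prkacb (0.41) and Gnai1 (0.37), which rose, and Pde7b (-0.90), Pde7a (-0.79) and Adcy7 (-1.56), which fell. The medians were 0.008 and 0.03. Of 15 receptor kinases, arrestins and RGS genes 4 rose and 3 fell of 14 tested in FI3OE, led by Grk3 (1.24) and Rgs3 (-0.57), and in FI3KO 1 of 12 rose (Grk6, 0.38) and 0 fell, with medians of -0.10 and -0.14.

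Further down are the genes of lipolysis itself, all 7 of which were tested. In FI3OE Pnpla2, the gene of the lipase ATGL, fell by 0.20 on the log2 scale, Lipe, the gene of hormone-sensitive lipase, by 0.19 and the glycerol channel gene Aqp7 by 0.29, while Abhd5 (0.27), Mgll (0.25) and Plin1 (0.21) rose, with a median of 0.06. In FI3KO, Pnpla2 (0.63), its inhibitor G0s2 (0.52) and Plin1 (0.26) rose and Abhd5, the activator of ATGL, fell (-0.40), with a median of 0.15. Among 19 genes that make or remove the ligands, 7 of 19 tested rose and 3 fell in FI3OE (20.2% and 16.8% of all genes), with Ptgs2 (1.14) and Ptges (0.76), which make prostaglandin E2, highest of those named by the rule, and with Nt5e, which makes adenosine, lower (-0.41). In FI3KO 3 of 17 tested rose and 5 fell. Hpgd, which degrades prostaglandin E2, rose (0.77), and Maoa (-0.50), which degrades catecholamines, fell, as did the prostaglandin transporter gene Slco2a1 (-2.34). The medians of this list were 0.10 and -0.19.

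Over the 12 TRAP libraries, the genes whose log2 CPM followed Adrb3 most closely were Nat8l (Pearson r = 0.994, Spearman rho = 0.972), Zrsr1 (0.992 and 0.986) and Tmem159 (0.991 and 0.944). Nat8l encodes the enzyme that makes N-acetylaspartate. For Hcar1 they were Ube2h (0.986 and 0.951), Ephx2 (0.984 and 0.951) and Zbtb5 (0.984 and 0.937), and for Ffar4 Art3 (0.989 and 0.979), Nrbp2 (0.984 and 0.944) and Asns (0.982 and 0.909). Adora1 was followed by Arfgap3 (0.985 and 0.951), Trp53inp2 (0.983 and 0.965) and Yipf1 (0.983 and 0.972). These coefficients describe the pattern over libraries that share genotype and replicate set, and the difference between the genotypes enters all of them.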

How the data were processed

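The authors trimmed the reads with fastp and quantified them with Salmon (version 1.4.0, per the submitters' processing notes, which name GRCm38). The deposited tables give, for 118733 transcripts in each library, estimated counts (expected counts, not normalized), TPM as computed by the authors' Salmon run (scaled for transcript length and library total) and other values, the effective lengths. Libraries were made from RNA depleted of ribosomal RNA with a kit that does not mark strand. Here transcripts were assigned to genes with GENCODE M21 (117850 matched, 883 kept as own genes), counts were summed and rounded, and CPM were taken over all genes. TPM were summed per gene to order receptors by level.

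The main test was edgeR 4.0.16 in R 4.3.3 (filterByExpr, TMM, quasi-likelihood test, Benjamini-Hochberg adjustment over all genes tested), fitted on the 2 groups compared, with no covariate. Rose and fell refer to an adjusted p of at most 0.05, and both cutoffs add a log2 change of 1 or more in either direction. Exact permutation tests (Python 3.11.15, scipy 1.17.1) used log2(CPM + 0.1). Counting error alone is covered by the limit of 3 reads for detection. Named are all 9 receptors, Irf3, in each pathway list up to 3 genes with the largest rise and 3 with the largest fall past the test and an average log2 CPM no lower than 1, and the 3 genes with the highest Pearson r. The receptors, lists and tests were chosen with earlier results of these data known. Alternatives were DESeq2 1.42.0 and its size factors, no filter, a minimum of 10 counts, a length offset, one fit over the 18 libraries, removal of unmatched transcripts or of mitochondrial and rRNA genes, a replicate block, leaving out single libraries, and the replicate sets. Summing replicates 1 and 2 or neighbouring replicates, library totals in place of TMM, and the replicate sets between the WT groups were chosen after seeing the data. Some genes that the rule names are not reported here. The other data of the study were not used here.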

Additional observations from a re-analysis of the deposited data

Results flagged for a closer look

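In WT TRAP, Adora1 in replicate 3 (165 CPM) stood apart from the other 5 libraries, the nearest of which was at 145 CPM, a gap of 0.747 of the range of the group. Chance alone gives such a gap in about 1 of 20 groups, and 18 groups of receptor values were looked at. The fall of Adora1 in FI3KO passed the edgeR test without that library.

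The genotype effect differed between TRAP replicates 1 and 2 and replicates 3 to 6, by the interaction term in edgeR, for 3 receptors. The log2 fold change of replicates 1 and 2 minus that of replicates 3 to 6 was -1.46 for Adrb3 (SE 0.23, adjusted p = 0.000784), -1.27 for Hcar1 (SE 0.43, adjusted p = 0.0462) and -1.01 for Ffar4 (SE 0.10, adjusted p = 4.65e-05). The labels do not say what separates these replicates, and an interaction of this kind passed for 26.5% of all genes.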

How the results depend on the processing

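In FI3OE against WT, 129 of 144 receptor values under the alternatives kept their direction and their side of the threshold, in FI3KO against WT 201 of 216, and in WT TRAP against WT SVF-derived adipocytes 185 of 206. Values of receptors that did not pass in the main fit are counted too. The receptors unchanged in every alternative were 4 of 9 in FI3OE, 2 of 8 in FI3KO and 6 of 9 between the WT groups. Between the WT groups, Adrb1 also missed the threshold with at least 10 counts in every library (adjusted p = 0.0645), with WT replicates 1 and 2 summed (0.0532) and with TRAP replicates 3 to 6 only and library totals (0.786), where Adora1 missed it too (0.0517). Adrb3 also passed there with no filter (0.0391), a length offset (0.0466) and the fit of all 18 libraries (0.0132), and turned to -0.16 with replicates 3 to 6 only and library totals. The direction turned for Ffar4 in FI3OE without replicate 1 (0.14) or replicate 3 (0.02), with values from -0.70 to 0.14 over all libraries left out, and, with TRAP replicates 1 and 2 only, for Ptger3 (-0.017), Hcar2 (-0.15) and Ffar4 (-0.070) in FI3KO, where only 4 libraries remain.

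In FI3OE, 583 genes met both cutoffs and 5 receptors passed, against 342 genes and 2 receptors in the fit of all 18 libraries, which shares its estimate of spread with the TRAP groups. Leaving out libraries gave 551 to 623 genes and 4 to 5 receptors. In FI3KO the counts were 901 genes and 6 receptors. They were 574 genes with at least 10 counts in every library, 1355 in the fit of all 18 libraries, 1868 with replicates 3 to 6 only, 191 genes and 3 receptors with replicates 1 and 2 only, and 253 genes and 2 receptors (Adrb3 and Adora1) with neighbouring replicates summed to 3 samples a group, an alternative chosen after seeing the data. There Hcar1, Ffar4, Ffar2 and Adrb1 had adjusted p = 0.0877, 0.120, 0.0616 and 0.195. Leaving out libraries gave 761 to 1115 genes and 5 to 6 receptors. Between the WT groups 7719 genes met both cutoffs, and 4035 with at least 10 counts in every library, which tests fewer genes. Leaving out libraries gave 7535 to 7804 genes and 7 to 9 receptors. Library totals in place of TMM moved the median of all genes from -0.07 to -0.53 between the WT groups and by less than 0.1 in the other comparisons, and in FI3KO it split the calls over all genes into 41.2% higher and 58.8% lower (51.1% and 48.9% with TMM).

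Replicate numbers did not pair the samples: the correlation of same-numbered libraries was over 0.1 for 0 of 3 pairs in SVF-derived adipocytes and 1 of 6 in TRAP, and 1 of the former and 0 of the latter correlated best with their own number. With the replicate number as a block, 5658 genes passed in FI3OE (5960 without it), 3632 in FI3KO (5095) and 12522 between the WT groups (13195), and 6, 6 and 9 receptors passed (5, 6 and 8 without it). The receptors gained were Hcar1 in FI3OE (adjusted p = 0.0420) and Adrb3 between the WT groups (adjusted p = 0.0321). Adra2a in TRAP, at 2 reads or fewer per library, is below what this depth can show.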
